A study of Mus musculus with 28 samples.

Results

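A group of 10 immediate early genes was followed across mouse embryonic stem (ES) cells that lacked Dicer and had been given back wild-type or mutant DICER1: Fos, Fosb, Fosl1, Jun, Junb, Egr1, Egr2, Atf3, Ier2 and Ier3. They are the rows of the deposited log2 table whose platform symbol is one of these 10 names, out of 19938 genes with a probe set of 1 symbol. A gene with several probe sets was to be represented by the one selected on the highest mean over all arrays. Each of the 10 genes had 1 probe set, so this measured value, the only one in the rule, chose none of them. The 10 names themselves were chosen with earlier results of these data known, so counts of members are descriptions.

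Dicer is the enzyme that cuts precursor hairpins into mature microRNAs. The series examined hotspot mutations of DICER1, which change residues of its RNase IIIb domain. RNA was measured on 28 microarrays in 9 groups, and all cells were kept in ES medium and collected while growing in log phase. No label describes a serum or growth factor pulse, and the labels are silent on the time since the last medium change.

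Dicer wild-type ES cells (2 arrays) and Dicer-null ES cells (Dicer-/-, 3 arrays) carried no vector. Every other group was made in Dicer-null ES cells. The pLD-puro-ENvA vector carried eGFP (3 arrays), D1709A (4 arrays), E1705K (3 arrays), D1810Y (3 arrays) or wild-type DICER1 (4 arrays). The pLD-puro-PGKnvA vector carried D1709N (2 arrays), E1813Q (2 arrays) or wild-type DICER1 (2 arrays), and there was no eGFP group in that vector. The labels name 1 line for each genotype and are silent on whether a group's arrays are separate cultures. The p-values therefore rest on array-to-array spread that could be technical.

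Immediate early genes are switched on within minutes of a signal without new protein synthesis. Serum response factor with its ELK partners and the cAMP response element binding protein act at their promoters, and the ERK kinase cascade is a main input. Fos, Fosb and Fosl1 encode FOS proteins that pair with JUN proteins to form the AP-1 transcription factor, Egr1 and Egr2 encode zinc finger factors, and Atf3 encodes a stress-induced factor that can pair with JUN. In ES cells, FGF4 acting through ERK is known for promoting exit from the naive state.

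The promoters of the members that moved most widely, and of Egr2, are shown because the group is known for shared control elements. RefSeq promoter windows of GRCm38.p6, from 250 bases before to 50 after a start site, were at hand for 7 members (11 windows). Fosl1, Egr1 and Ier2 had no window and were not searched. Capitals mark the letters searched for, on either strand: TGACG, a shortened cAMP response element that reads CGTCA on the other strand, then TGACATCA, then the TATA box written TATAAA, then GCGNGGGCG, an EGR site, and the CArG box bound by serum response factor. The 250 bases before the start are given for Fos (chr12:85473640-85473889, plus strand), Fosb (chr7:19310046-19310295, minus strand), Jun (chr4:95052223-95052472, minus strand) and Atf3 (chr1:191183334-191183583, minus strand), and 30 bases around each of the 2 CArG boxes of Egr2 (chr10:67537481-67537510 and chr10:67537784-67537813, plus strand).
Fos: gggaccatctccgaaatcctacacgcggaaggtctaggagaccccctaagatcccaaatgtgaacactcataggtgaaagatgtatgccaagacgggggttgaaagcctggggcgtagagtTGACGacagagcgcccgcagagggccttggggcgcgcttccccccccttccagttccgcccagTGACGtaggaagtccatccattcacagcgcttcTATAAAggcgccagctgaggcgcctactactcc
Fosb: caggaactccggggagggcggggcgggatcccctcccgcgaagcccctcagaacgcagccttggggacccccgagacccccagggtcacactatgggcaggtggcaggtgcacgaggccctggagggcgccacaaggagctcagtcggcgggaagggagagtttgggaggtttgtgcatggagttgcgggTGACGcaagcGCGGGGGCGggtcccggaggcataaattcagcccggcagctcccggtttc
Jun: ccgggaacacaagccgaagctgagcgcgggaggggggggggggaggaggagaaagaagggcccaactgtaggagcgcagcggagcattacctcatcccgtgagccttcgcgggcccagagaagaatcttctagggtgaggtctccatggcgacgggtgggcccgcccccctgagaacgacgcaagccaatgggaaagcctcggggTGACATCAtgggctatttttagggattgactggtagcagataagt
Atf3: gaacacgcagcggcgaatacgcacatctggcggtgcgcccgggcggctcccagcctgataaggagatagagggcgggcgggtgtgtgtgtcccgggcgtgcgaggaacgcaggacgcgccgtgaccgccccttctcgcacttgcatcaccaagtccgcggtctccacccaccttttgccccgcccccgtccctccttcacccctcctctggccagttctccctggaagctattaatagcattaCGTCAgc
Egr2, first box: taccggatcttctCCTTTTTTGGaaagtct
Egr2, second box: cctgttcctcagtCCATATATGGgcagcga

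TGACG stood in the windows of 5 members (Fos, Fosb, Junb, Egr2 and Atf3), and 20.8% of all 32851 promoter windows of that length hold it. Fos carried it with its first base 129 and 66 bases before the start, and the TATAAA 33 bases before the start. The CArG box was found in Egr2 alone among the 7, against 1.63% of all windows, and GCGNGGGCG in Fosb alone, against 5.55%. TGACATCA, a site known from the Jun promoter, lay 45 bases before the Jun start and occurs in 3.62% of windows. TATAAA was found in Fos and Junb, against 13.6% of windows. Full cAMP response elements (TGACGTCA, 1.79% of windows) and AP-1 sites (TGANTCA, 7.81%) were in none of the members' windows. These are letter matches only, and the letters of a full TGACGTCA also count as a TGACG match. Sites farther from a start than the windows reach were not searched. Egr2 has several windows, while the shares are per window.

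All values below are deposited log2 expression values, so a difference of 1 is a 2-fold difference. Array medians lay between 7.14 and 7.27. Genes whose mean over the arrays was above 6.42, the 30th percentile, were tested (13956 genes), and all 10 members passed. One limma model was fitted over all 28 arrays with a term for the vector. A gene is called where p, adjusted over all tested genes by Benjamini-Hochberg, was under 0.05. The deposited values obey 3 exact relations between arrays, found after the data were examined. The arrays numbered 4 (one of D1709A, one with wild-type DICER1) deviate from arrays 1 to 3 of their groups by equal and opposite amounts. Wild-type DICER1 has the same mean in both vectors. The deviations of the first arrays of 5 groups (Dicer-null, D1709A, E1705K, wild-type DICER1 and Dicer wild-type) sum to 0. Each relation holds within 0.000183 for every probe set. Arrays are therefore not fully independent, and p-values are approximate. What made the relations is not stated in the labels used here. Wild-type DICER1 alone is in both vectors, so the vector term of the model was close to 0 for every gene. It removed no difference between the vectors. Equal wild-type means in both vectors also bear on the sizes of differences between D1709N or E1813Q and groups outside the PGKnvA vector, and by how much was not tested. Dicer1 itself averaged 9.27 in Dicer-null against 10.68 in Dicer wild-type cells, a difference of -1.42 (SE 0.07), and 9.31 in wild-type DICER1 against 9.39 in eGFP cells (adjusted p = 0.227 by limma). The files do not say where its probes lie, so the deletion and the transgene were not checked by it.

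The ES markers Pou5f1, Nanog and Sox2 were high throughout, while other pluripotency markers such as Klf2 moved between groups and are given below. Pou5f1 lay between 12.33 and 12.93, Nanog between 12.59 and 13.20 and Sox2 between 11.93 and 12.78 over the 28 arrays. Lum, a fibroblast marker, stayed between 3.84 and 4.38, and Dcn between 5.52 and 7.02. Of the other fibroblast markers Col1a1 lay between 7.72 and 8.57, and Postn varied from 4.73 to 7.58. RNA came from whole cultures, so fewer cells that express a gene and less RNA per cell cannot be told apart.

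**Figure D1:**
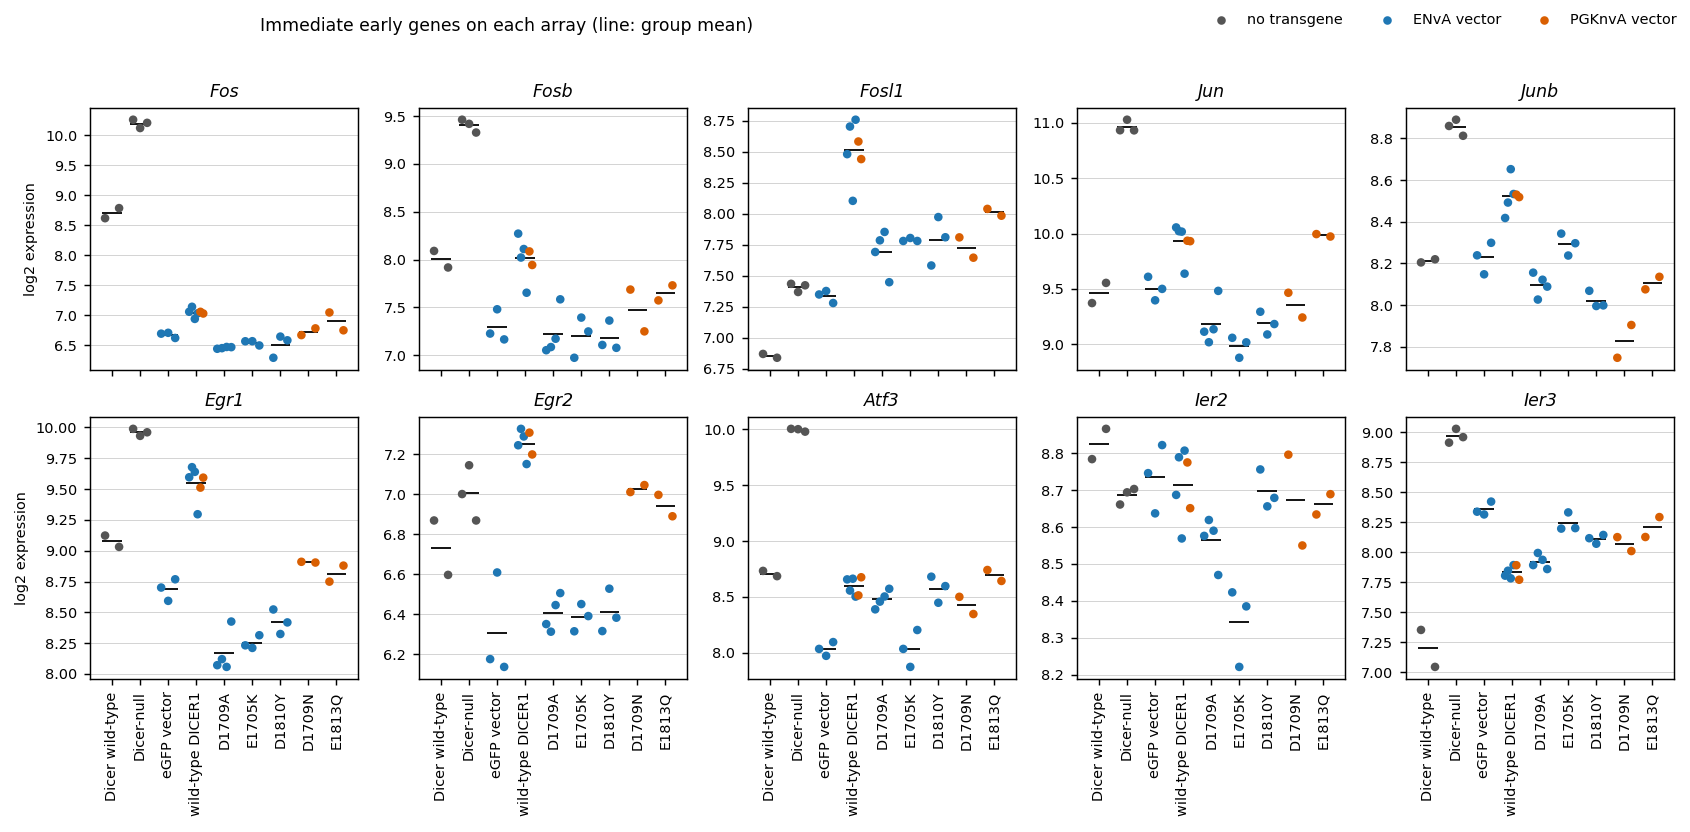
Deposited log2 expression (y axis) of each of the 10 genes on each array in the 9 groups (x axis), with a line at the group mean; grey points carried no transgene, blue points the ENvA vector and orange points the PGKnvA vector. Y scales differ between panels. Dicer-null arrays were the highest of all for Fos, Fosb, Jun, Junb, Egr1, Atf3 and Ier3, and wild-type DICER1 arrays for Fosl1 and Egr2.

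Fos, the founding member of its family, spanned the widest range, with group means from 6.46 to 10.20. It read 8.62 and 8.79 in Dicer wild-type cells, 10.26, 10.12 and 10.21 in Dicer-null cells, and 6.69, 6.71 and 6.62 with eGFP. Wild-type DICER1 arrays ran from 6.94 through a median of 7.04 to 7.14. Among mutants it read 6.44, 6.45, 6.47 and 6.47 in D1709A, 6.57, 6.57 and 6.50 in E1705K, 6.29, 6.65 and 6.58 in D1810Y, 6.67 and 6.78 in D1709N, and 7.05 and 6.75 in E1813Q. All 5 arrays without a vector were above all 23 arrays with one. Among the latter, E1813Q array 1 was the only mutant array inside the wild-type range. The Fos means of the groups with a vector, from 6.46 (D1709A) to 7.04 (wild-type DICER1), lay under the lowest array median of 7.14. Sizes that involve them are therefore differences from or between low values.

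Fosb, a relative of Fos with the same AP-1 role, followed the same broad order. It read 8.09 and 7.92 in Dicer wild-type, 9.46, 9.42 and 9.33 in Dicer-null, and 7.23, 7.48 and 7.17 in eGFP cells. With wild-type DICER1 it ran from 7.65 through a median of 8.05 to 8.27. The mutants read 7.05, 7.09, 7.17 and 7.58 (D1709A), 6.97, 7.39 and 7.25 (E1705K), 7.11, 7.36 and 7.08 (D1810Y), 7.69 and 7.25 (D1709N), and 7.57 and 7.73 (E1813Q). Dicer-null stood alone at the top, wild-type DICER1 and Dicer wild-type overlapped, and from E1813Q down to D1810Y each group overlapped the next.

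Fosl1, which encodes FRA1, had a different order. It was lowest in Dicer wild-type cells, at 6.87 and 6.84, and read 7.43, 7.37 and 7.42 in Dicer-null and 7.35, 7.38 and 7.28 in eGFP cells. Wild-type DICER1 was highest, from 8.10 through a median of 8.53 to 8.76. The mutants read 7.69, 7.79, 7.85 and 7.45 (D1709A), 7.78, 7.80 and 7.78 (E1705K), 7.58, 7.97 and 7.81 (D1810Y), 7.81 and 7.64 (D1709N), and 8.04 and 7.98 (E1813Q). All 14 mutant arrays lay below all 6 wild-type DICER1 arrays and above all 6 arrays of the Dicer-null and eGFP groups.

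Jun, the main partner of FOS proteins, read 9.37 and 9.55 in Dicer wild-type, 10.93, 11.03 and 10.93 in Dicer-null, and 9.61, 9.40 and 9.50 in eGFP cells. The wild-type DICER1 arrays ran from 9.64 through a median of 9.98 to 10.06. The mutants read 9.12, 9.02, 9.14 and 9.48 (D1709A), 9.06, 8.88 and 9.02 (E1705K), 9.29, 9.09 and 9.18 (D1810Y), 9.47 and 9.24 (D1709N), and 9.99 and 9.97 (E1813Q). E1813Q lay inside the wild-type range, while the other 4 mutants lay below it and overlapped one another in sequence down to E1705K. Array 4 of D1709A stood 0.39 above its group's first 3 arrays, and array 4 of wild-type DICER1 as far below its own.

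Junb, a JUN family member that often opposes Jun, varied less, with group means from 7.83 to 8.85. It read 8.21 and 8.22 in Dicer wild-type, 8.86, 8.89 and 8.81 in Dicer-null, and 8.24, 8.15 and 8.30 in eGFP cells. Its wild-type DICER1 values ran from 8.42 through a median of 8.52 to 8.65. The mutants read 8.16, 8.03, 8.12 and 8.09 (D1709A), 8.34, 8.24 and 8.30 (E1705K), 8.07, 7.996 and 7.999 (D1810Y), 7.75 and 7.91 (D1709N), and 8.08 and 8.14 (E1813Q). D1709N stood alone at the bottom, and E1705K overlapped eGFP.

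Egr1, a zinc finger factor and a standard readout of ERK activity, kept 6 of the 8 neighbouring groups in its order apart. It read 9.12 and 9.03 in Dicer wild-type, 9.99, 9.93 and 9.96 in Dicer-null, and 8.70, 8.59 and 8.77 in eGFP cells. With wild-type DICER1 it ran from 9.30 through a median of 9.59 to 9.68. The mutants read 8.07, 8.12, 8.06 and 8.43 (D1709A), 8.23, 8.21 and 8.31 (E1705K), 8.52, 8.32 and 8.42 (D1810Y), 8.91 and 8.90 (D1709N), and 8.75 and 8.88 (E1813Q). The 3 mutants in the ENvA vector lay below every eGFP array, D1709N lay above them, and E1813Q overlapped them.

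Egr2 had its highest values with wild-type DICER1, from 7.15 through a median of 7.27 to 7.33. It read 6.87 and 6.596 in Dicer wild-type, 7.0, 7.14 and 6.87 in Dicer-null, and 6.18, 6.61 and 6.14 in eGFP cells. The mutants read 6.35, 6.31, 6.45 and 6.50 (D1709A), 6.31, 6.45 and 6.39 (E1705K), 6.32, 6.53 and 6.38 (D1810Y), 7.01 and 7.04 (D1709N), and 6.996 and 6.89 (E1813Q). The 4 arrays of PGKnvA mutants all lay above the 10 arrays of ENvA mutants. The means of eGFP, D1709A, E1705K and D1810Y fell under the 6.42 level used as a filter, so sizes that involve them are differences of low values.

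Atf3, which is induced by many stresses, read 8.73 and 8.69 in Dicer wild-type, 10.004, 10.001 and 9.98 in Dicer-null, and 8.04, 7.97 and 8.10 in eGFP cells. Wild-type DICER1 arrays ran from 8.50 through a median of 8.61 to 8.68. The mutants read 8.39, 8.46, 8.50 and 8.57 (D1709A), 8.04, 7.87 and 8.20 (E1705K), 8.68, 8.45 and 8.60 (D1810Y), 8.50 and 8.35 (D1709N), and 8.74 and 8.64 (E1813Q). E1705K lay with eGFP at the bottom, and the other 4 mutants overlapped one another and wild-type DICER1 in sequence.

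Ier2 varied least, with group means from 8.34 to 8.83. The arrays of the 2 groups without a vector lay between 8.66 and 8.87, those of eGFP between 8.64 and 8.82, and those of wild-type DICER1 between 8.57 and 8.81. D1709A read 8.58, 8.62, 8.59 and 8.47, and E1705K read 8.42, 8.22 and 8.38, while D1810Y, D1709N and E1813Q lay between 8.55 and 8.80. E1705K was the lowest group and overlapped no neighbour, and the groups from Dicer wild-type to E1813Q overlapped in sequence.

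Ier3, which is known for restraining cell death and prolonging ERK activity, was lower with wild-type DICER1 than with eGFP. In that comparison 8 members were higher and Ier2 was not called. Ier3 read 7.35 and 7.05 in Dicer wild-type, 8.91, 9.03 and 8.96 in Dicer-null, and 8.34, 8.32 and 8.42 in eGFP cells. The wild-type DICER1 arrays ran from 7.77 through a median of 7.83 to 7.89. The mutants read 7.89, 7.995, 7.94 and 7.86 (D1709A), 8.20, 8.33 and 8.20 (E1705K), 8.12, 8.07 and 8.14 (D1810Y), 8.13 and 8.01 (D1709N), and 8.13 and 8.29 (E1813Q). D1709A overlapped wild-type DICER1, the other 4 mutants lay above every wild-type DICER1 array, and among them E1705K reached the eGFP range.

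Loss of Dicer was compared first, in the cells without a vector. Here 9 of the 10 members were higher in Dicer-null than in Dicer wild-type cells, and 30.7% of all tested genes were called higher. Ier3 rose by 1.77 (SE 0.08, 3.41-fold, adjusted p = 6.83e-16 by limma), Jun by 1.498 (SE 0.11), Fos by 1.49 (SE 0.09, 2.82-fold), Fosb by 1.40 (SE 0.16) and Atf3 by 1.29 (SE 0.08). Smaller rises were measured for Egr1 (0.88), Junb (0.64) and Fosl1 (0.56). Ier2 differed by -0.14 (SE 0.08, adjusted p = 0.147). The Egr2 difference of 0.27 (adjusted p = 0.0432) lost its call without array 1 (adjusted p = 0.0735) or array 2 (0.20, adjusted p = 0.172) of Dicer-null, without array 2 of Dicer wild-type (0.14, adjusted p = 0.456), and with no filter on low values (adjusted p = 0.0572). Array sets were defined by vector and array number, as described below. With 1 mean per group and array set as the replicate, Fosl1 (adjusted p = 0.156), Egr1 (adjusted p = 0.0615) and Egr2 (adjusted p = 0.115) were not called. In that fit only wild-type DICER1 and D1709A have more than 1 set, and the exact relations tie their set means to 1 deviation, that of the arrays numbered 4. Its p-values therefore do not measure how far results repeat across sets. Ier2 was called as lower when only Dicer-null and Dicer wild-type were fitted (adjusted p = 0.0408). The median member was 1.09 higher, against 0.01 over all tested genes. Each genotype is 1 named line, so the genotype and the line cannot be told apart.

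The eGFP cells differed from untransduced Dicer-null cells in the opposite direction for 8 members, and 27.4% of tested genes were called lower. Fos fell by 3.52 (SE 0.08, 11.5-fold, adjusted p = 1.37e-20 by limma), and the differences were -2.11 for Fosb (SE 0.15, 4.33-fold), -1.96 for Atf3 (SE 0.08, 3.89-fold), -1.46 for Jun (SE 0.10) and -1.27 for Egr1 (SE 0.09). The eGFP mean of Fos, 6.675, was near the 6.42 level used as a filter, so its fold size rests on a low value. The other called members were Egr2 (-0.70), Junb (-0.62) and Ier3 (-0.61). Fosl1 (-0.07, SE 0.12) and Ier2 (0.05, SE 0.07) were not called. None of these calls was lost in any alternative that tested the gene. Both groups lack Dicer, and the vector and the line cannot be told apart. The Dicer-null arrays are shared with the comparison before, and the eGFP arrays with the next.

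Putting back wild-type DICER1 was compared with eGFP in the same Dicer-null background. With wild-type DICER1 8 members rose, against 30.8% of tested genes called higher. Fosl1 rose by 1.18 (SE 0.11, 2.26-fold, adjusted p = 1.9e-09 by limma), Egr2 by 0.95 (SE 0.09, 1.93-fold), Egr1 by 0.87 (SE 0.08, 1.82-fold), Fosb by 0.72 (SE 0.14) and Atf3 by 0.56 (SE 0.07). Jun rose by 0.43, Fos by 0.37 and Junb by 0.30. Ier3 fell by 0.53 (SE 0.07, adjusted p = 1.5e-07), while 28.7% of tested genes were called lower, and Ier2 differed by -0.02 (SE 0.07, adjusted p = 0.799). For the 8 risen members every wild-type DICER1 array lay above every eGFP array, which held for 28.7% of tested genes, and for Ier3 every one lay below, which held for 26.7%. With 1 mean per array set, Fosb (0.64, adjusted p = 0.158) and Jun (0.37, adjusted p = 0.294) lost their calls.

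**Figure D2:**
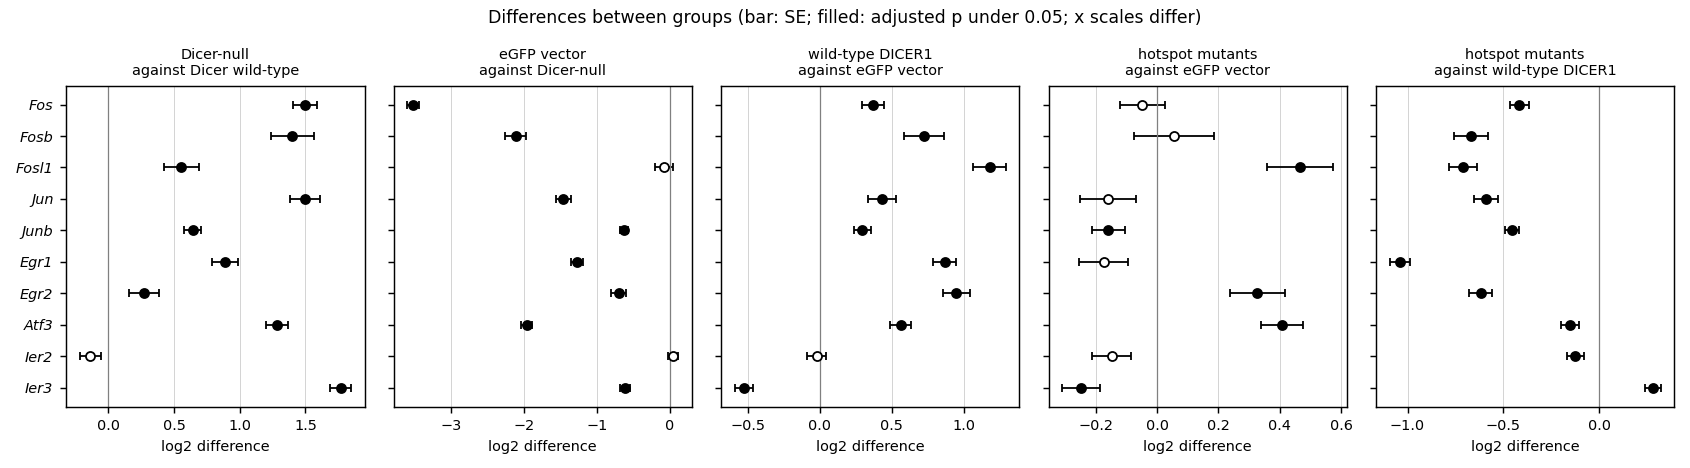
Log2 difference (x axis, first group minus second) of the 10 genes (y axis) in 5 comparisons, with bars of 1 SE from the limma fit; filled points are called at adjusted p under 0.05, and x scales differ. Members lie right of 0 in Dicer-null against Dicer wild-type except Ier2, left of 0 or at it in eGFP against Dicer-null, right again with wild-type DICER1 except Ier2 and Ier3, on both sides in mutants against eGFP, and left in mutants against wild-type DICER1 except Ier3.

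The 5 hotspot mutants together, with equal weight for each, differed from eGFP in 5 of 10 members, near the 53.1% of tested genes called in either direction. That count ran from 4 to 7 over the alternatives. Fosl1 (0.47, SE 0.11), Atf3 (0.41, SE 0.07) and Egr2 (0.33, SE 0.09) rose, against 29.3% of tested genes called higher. Ier3 (-0.25, SE 0.06) and Junb (-0.16, SE 0.05) fell, against 23.8% called lower. Fos (-0.05, SE 0.07), Fosb (0.06, SE 0.13), Jun (-0.16, SE 0.09), Egr1 (-0.18, SE 0.08) and Ier2 (-0.15, SE 0.06) were not called. The pooled values hide unlike mutants. Egr2 lay 0.72 (D1709N) and 0.64 (E1813Q) above eGFP, but 0.08 to 0.10 in the ENvA mutants. Atf3 in E1705K differed by 0.003. Egr1 differed by -0.52 (D1709A), -0.435 (E1705K), -0.27 (D1810Y), 0.22 (D1709N) and 0.13 (E1813Q). Single mutants were not tested against eGFP, and PGKnvA had no eGFP group. The Junb call was lost without array 3 of eGFP (-0.13, adjusted p = 0.0968), and the Fosl1 call with 1 mean per array set (0.45, adjusted p = 0.151). Egr1 became called as lower in 5 alternatives, among them arrays centred on their medians (-0.21, adjusted p = 0.0253) and the fits without array 4 of D1709A (-0.19, adjusted p = 0.0147) or array 2 of eGFP (-0.22, adjusted p = 0.0438). Jun became called without array 4 of D1709A (-0.18, adjusted p = 0.0429). Ier2 became called in 8 alternatives, among them the fits without array 2 of eGFP (-0.20), array 1 of D1709N (-0.17) or array 1 of E1705K (-0.16).

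Against wild-type DICER1, the comparison named by the series title, the mutants together were lower for 9 members and higher for Ier3. Of all tested genes 27.7% were called lower and 32.3% higher. Egr1 fell by 1.04 (SE 0.05, 2.06-fold, adjusted p = 2.28e-14 by limma), and the differences were -0.71 for Fosl1 (SE 0.07, 1.64-fold), -0.67 for Fosb (SE 0.09), -0.62 for Egr2 (SE 0.06), -0.59 for Jun (SE 0.06), -0.46 for Junb (SE 0.04) and -0.42 for Fos (SE 0.05). Ier3 rose by 0.28 (SE 0.04, adjusted p = 3.51e-06). The smallest called differences were those of Atf3 (-0.15) and Ier2 (-0.13). The Atf3 call was lost without array 6 of wild-type DICER1 (-0.12, adjusted p = 0.0549), and the Ier2 call without array 5 of wild-type DICER1 (-0.10, adjusted p = 0.0969). The mutants share the 6 wild-type DICER1 arrays with the comparison against eGFP, so the opposite signs of these comparisons are not independent.

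Every one of the 14 mutant arrays lay below every wild-type DICER1 array for Fosl1, Junb, Egr1 and Egr2, which held for 8.05% of tested genes. After the exact relations were seen, the arrays were put into 3 sets by vector and number. These were arrays numbered 1 to 3 outside the PGKnvA vector, the arrays numbered 4 (D1709A and wild-type DICER1), and the PGKnvA arrays. No relation involves eGFP or D1810Y, so their place in the first set is an assumption. Within all 3 sets 8 members were lower in mutants than in wild-type DICER1, as were 22.3% of tested genes. Egr1 differed by -1.39, -0.87 and -0.69 in the 3 sets, Egr2 by -0.90, -0.65 and -0.27, Junb by -0.38, -0.45 and -0.56, and Fosl1 by -0.65, -1.31 and -0.64. Jun differed by -0.94, -0.16 and -0.26, and Fosb by -0.97, -0.07 and -0.46. Atf3 (-0.27, 0.07 and -0.04) and Ier3 (0.29, -0.03 and 0.31) changed sign between sets. With 1 mean per group and set as the replicate, 6 of the 10 calls were kept, those of Fos, Fosl1, Junb, Egr1, Egr2 and Ier3. As said above, the spread in that fit rests on the arrays numbered 4.

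Each mutant was then set against wild-type DICER1 by itself. D1709A was lower for 7 members (21.7% of tested genes were called lower), E1705K for 9 (20.7%), D1810Y for 7 (25.2%), D1709N for 6 (18.5%) and E1813Q for 4 (19.5%). Egr1 fell in all 5, with differences of -1.38 (SE 0.08) in D1709A, -1.30 (SE 0.08) in E1705K, -1.13 (SE 0.08) in D1810Y, -0.65 (SE 0.11) in D1709N and -0.74 (SE 0.11) in E1813Q. With 1 mean per array set Egr1 was not called in D1709N (-0.59, adjusted p = 0.114) or E1813Q (-0.68, adjusted p = 0.0805). Fosl1 and Junb also fell in all 5. The Fosl1 differences ran from -0.82 (D1709A) to -0.50 (E1813Q), and those of Junb from -0.70 (D1709N) to -0.23 (E1705K). With 1 mean per array set Fosl1 was not called in E1705K (adjusted p = 0.0681), D1810Y (adjusted p = 0.0609) or E1813Q (adjusted p = 0.114). Jun fell by 0.95 (SE 0.10) in E1705K, and E1813Q differed by 0.05 (SE 0.13, adjusted p = 0.779). With 1 mean per array set Jun lost its call in every mutant that had one: E1705K (-0.88), D1810Y (-0.68), D1709A (-0.58) and D1709N (-0.51). Fosb lost its calls in the same mutants, at values from -0.75 (D1810Y) to -0.47 (D1709N). Atf3 (-0.56, SE 0.07) and Ier2 (-0.37, SE 0.07) were called in E1705K and in no other mutant, and the difference between mutants was not tested. Ier3 rose in E1705K (0.41, 27.3% of tested genes called higher), E1813Q (0.38, 21.1%), D1810Y (0.28, 28.5%) and D1709N (0.24, 21.5%), and differed by 0.09 (SE 0.06, adjusted p = 0.242) in D1709A.

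Several calls in the groups of 2 arrays rested on single arrays. The D1709N difference of Fos (-0.32) was not called without D1709N array 1 (-0.26, adjusted p = 0.111) or wild-type array 5 (-0.30, adjusted p = 0.0735). That of Fosb (-0.55) was not called without D1709N array 2 (-0.33, adjusted p = 0.252) or wild-type array 5 (-0.48, adjusted p = 0.117), and that of Ier3 without D1709N array 1 (0.18, adjusted p = 0.208) or wild-type array 6 (0.18, adjusted p = 0.225). In E1813Q the Fosl1 call was lost without E1813Q array 2 (-0.47, adjusted p = 0.0546) or wild-type array 5 (-0.43, adjusted p = 0.0827). The E1813Q difference of Egr2 (-0.31, adjusted p = 0.0492) was not called without either E1813Q array or without wild-type array 1, 2, 3, 5 or 6, at values from -0.36 to -0.26. Fos in E1813Q became called without E1813Q array 1 (-0.29, adjusted p = 0.0485), and Ier2 in D1709A without wild-type array 3 (-0.20, adjusted p = 0.0149).

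**Figure D3:**
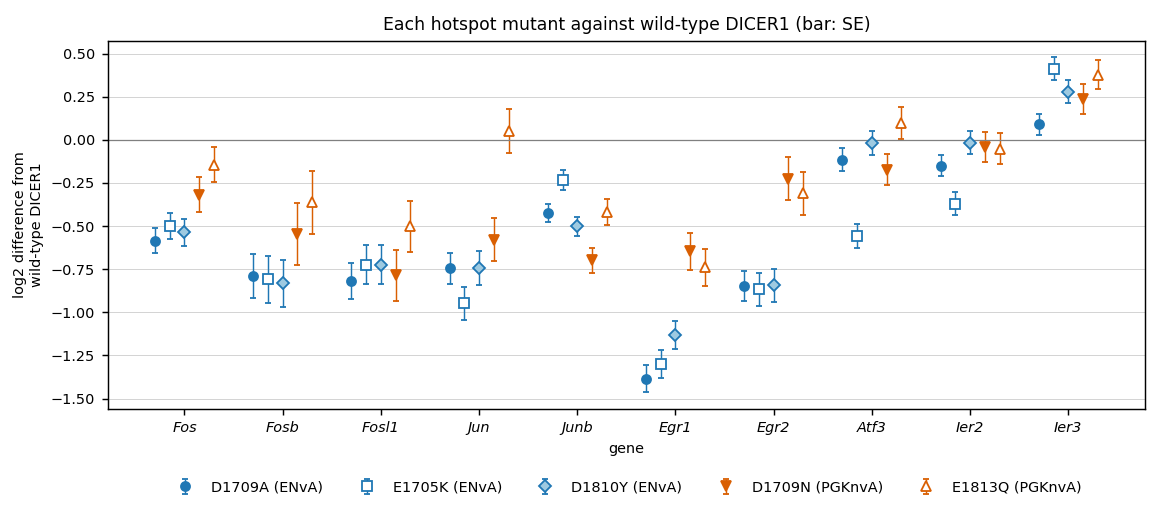
Log2 difference (y axis) of each of the 5 mutants from wild-type DICER1 for the 10 genes (x axis), with bars of 1 SE from the limma fit; blue symbols carried the ENvA vector and orange symbols PGKnvA. All 5 mutants lie below 0 for Egr1, Fosl1 and Junb, E1813Q lies at 0.05 for Jun, and the orange symbols lie above the blue ones for Fos, Fosb, Jun, Egr1 and Egr2.

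Mutants in the PGKnvA vector were compared with those in ENvA. On average, Fos, Jun, Egr1 and Egr2 were less far below wild-type DICER1 in the PGKnvA mutants. The mean of D1709N and E1813Q was above the mean of D1709A, E1705K and D1810Y by 0.59 for Egr2 (SE 0.13, adjusted p = 0.00356 by limma), 0.58 for Egr1 (SE 0.11, adjusted p = 0.00139), 0.55 for Jun (SE 0.13, adjusted p = 0.00632) and 0.31 for Fos (SE 0.11, adjusted p = 0.0442). These were 4 of the 10 members, and 8.52% of tested genes were called higher. The comparison was added after the data were examined. For Jun the pooled mean hides unlike mutants. E1813Q averaged 9.98, beside 9.93 with wild-type DICER1, while D1709N averaged 9.355 and its arrays overlapped those of D1810Y. Differences for the other members ran from -0.17 (Junb) to 0.36 (Fosb) and were not called. Junb, which went the other way, became called as lower in 4 alternatives, with the replicate number as a block (-0.16, adjusted p = 0.0145) and with 1 mean per array set (-0.17, adjusted p = 0.0206) among them. Fosb (block adjusted p = 0.0282) and Atf3 (block adjusted p = 0.00192) became called as higher in 3 alternatives each, and Ier2 with no vector term (0.13, adjusted p = 0.0302). The Jun difference was 0.52 (adjusted p = 0.132) and that of Egr1 0.55 (adjusted p = 0.0905) with 1 mean per array set. The Fos call was lost without D1709N array 2 (0.28), E1813Q array 1 (0.24), D1709A array 1, 2 or 3 or E1705K array 1 or 3 (0.30 to 0.31), and also with no filter (adjusted p = 0.0602) or centred arrays (0.27, adjusted p = 0.068). Since no mutation was put in both vectors, and the deposited wild-type means are equal in both for every probe set, the vector, the array set and the mutations cannot be told apart here.

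The members' profiles over the 9 groups were related but not uniform. Of the 45 pairs of members, 40 had a positive Pearson r over the 9 group means and 8 had an r above 0.8, led by Fos with Fosb (0.94), Fosb with Jun (0.92) and Fosb with Atf3 (0.92). Over the 7 transgene and vector groups alone, 34 were positive and 10 were above 0.8, and Fosb with Atf3 was at 0.51. These are descriptions over few groups whose arrays share the relations above. Averaged over the 10 members, each centred on its own mean, Dicer-null stood at 0.99, wild-type DICER1 at 0.25, E1813Q at 0.05, Dicer wild-type at 0.03, D1709N at -0.13, eGFP at -0.24, D1810Y at -0.26, D1709A at -0.33 and E1705K at -0.34.

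**Figure D4:**
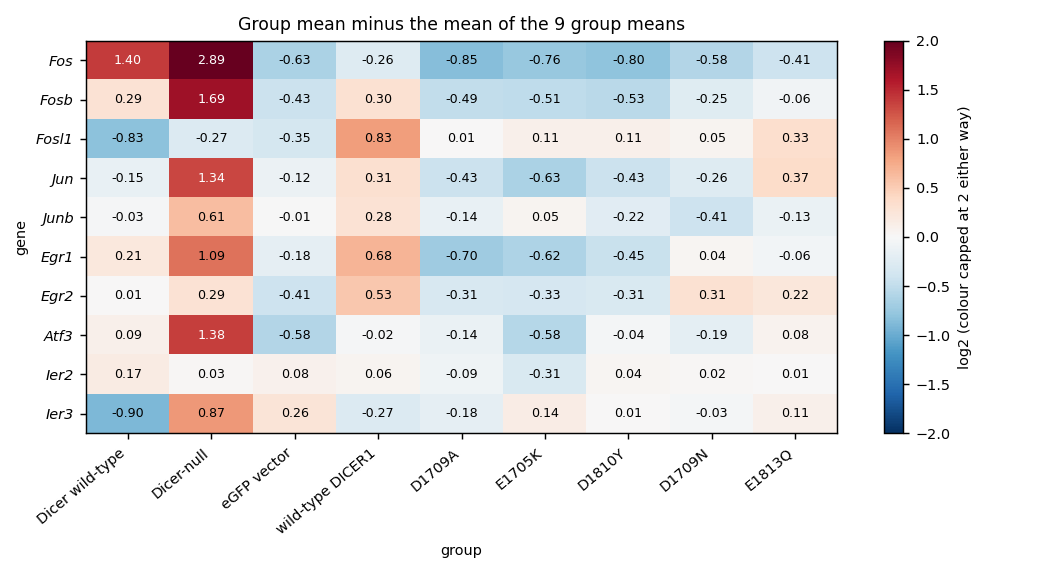
Mean of each of the 9 groups (x axis) minus the mean of the 9 group means for each of the 10 genes (y axis), in log2 units, with the value written in each cell and the colour capped at 2 either way. Dicer-null is above 0 for 9 genes, all but Fosl1, and wild-type DICER1 for 7, all but Fos, Atf3 and Ier3.

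Among 2763 tested genes whose group means span at least 1 log2 unit, those most like each member were found by Pearson r over the 9 group means. Zadh2 and Klhdc7a (both 0.98) and Gbgt1 (0.97) were most like Fos. Tcim (0.95), Cpeb2 (0.95) and Bhlhe40 (0.95) were most like Jun, and Fthl17f (0.94), Slc44a3 (0.92) and Dnajb4 (0.91) most like Egr1. Rhov (0.97), Itgb3 (0.97) and Klhdc7a (0.96) followed Fosb, and Insig1 (0.96), Gca (0.94) and Plekha8 (0.94) followed Fosl1. For Ier3 they were Fkbp9 (0.98), Ptpn13 (0.97) and Nmnat2 (0.97). Rabgef1 (0.91), Tmco4 (0.91) and Spi1 (0.91) were nearest to Junb, Fam114a1 (0.91), Bhmt (0.89) and Map2k6 (0.88) to Egr2, Rhov (0.91), Tmcc3 (0.91) and Unc13b (0.90) to Atf3, and Rpl39l (0.79), Mindy2 (0.73) and Vmn2r-ps104 (0.71) to Ier2. The members' mean was followed most closely by Tcim (0.95), Ablim1 (0.94), Itgb3 (0.94), Rhov (0.94), Entpd5 (0.94) and Ccpg1 (0.93), and most opposed by Brcc3 (-0.93), Zfp72 (-0.92) and Zfp442 (-0.92). Over the 7 groups with a vector the r with Fos was 0.78 for Klhdc7a, 0.45 for Zadh2 and 0.17 for Gbgt1.

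For the lists that follow, these are the shares of all tested genes called higher and then lower. They were 30.7% and 27.2% in Dicer-null against Dicer wild-type, and 20.2% and 27.4% in eGFP against Dicer-null. With wild-type DICER1 against eGFP they were 30.8% and 28.7%, and in mutants against eGFP 29.3% and 23.8%. In mutants against wild-type DICER1 they were 32.3% and 27.7%. Other immediate early genes were read from a list of 40, of which 38 passed the filter. In Dicer-null against Dicer wild-type cells 28 were higher and 2 lower (27.2% of all tested genes were called lower), and in eGFP against Dicer-null cells 5 were higher (20.2% of tested genes) and 22 lower. With wild-type DICER1 against eGFP 19 were higher and 9 lower, and in mutants against wild-type DICER1 6 were higher and 21 lower. Their medians in these 4 comparisons were 0.47, -0.27, 0.15 and -0.15, where medians over all tested genes lay between -0.03 and 0.02. In mutants against eGFP 10 were higher and 13 lower, with a median of -0.01. Of the other AP-1 genes, Fosl2 was higher by 1.38 and Jund by 1.37 in Dicer-null than in Dicer wild-type cells, and in mutants against wild-type DICER1 Fosl2 differed by -0.93. Jund took another course, with means of 10.38 with eGFP, 9.57 with wild-type DICER1 and 9.49 in the mutants. Maff, a small MAF factor, rose by 1.37 with wild-type DICER1 and was lower in mutants (-1.15), as were Arc (-0.98) and Ptgs2 (-0.88), the gene of an inducible cyclooxygenase. Myc went a different way, since it rose by 1.39 with wild-type DICER1 and by 1.42 with the mutants, each against eGFP. Nr4a2 differed by -1.05 with wild-type DICER1 against eGFP.

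ERK feedback genes, EGF-family ligands and EGR corepressors formed a list of 19, of which 17 were tested. With wild-type DICER1 against eGFP 13 were higher and 2 lower (median 0.69), and in mutants against wild-type DICER1 4 were higher and 9 lower (median -0.22). Nab2, a corepressor of EGR proteins that is itself induced by them, averaged 10.86 with wild-type DICER1, 9.34 with eGFP and 8.82 in the mutants, a difference of -2.04 (SE 0.06) between mutants and wild-type DICER1. Phlda1 (-1.84), Hbegf (-1.52), which encodes an EGF receptor ligand, and Dusp5 (-1.02), a nuclear ERK phosphatase, were also lower in the mutants. Dusp4 and Nab2 rose by 1.71 and 1.51 with wild-type DICER1, as did Spry4, an inhibitor of receptor signalling (1.21), while Etv1 fell by 1.44. Dusp4 rose by 1.49 with the mutants too. In the other 3 comparisons 7 were higher and 5 lower (Dicer-null against Dicer wild-type, where Dusp4 differed by -2.30 and Phlda1 by 2.05), 2 higher and 7 lower (eGFP against Dicer-null), and 8 higher and 5 lower (mutants against eGFP).

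Upstream, 20 genes of the ERK cascade and its SRF and CREB arms were tested. In mutants against wild-type DICER1 10 were higher and 5 lower, led by Mrtfa (0.43), Creb1 (0.38), Elk3 (0.37) and Fgfr1 (0.31). With wild-type DICER1 against eGFP 8 were higher and 10 lower, with Fgfr2 at 1.001 and Elk4 at -0.65. The counts were 9 higher and 4 lower in Dicer-null against Dicer wild-type, where Elk3 rose by 1.49, 3 and 11 in eGFP against Dicer-null, and 7 and 6 in mutants against eGFP. Srf itself, the serum response factor gene, is counted in the list of other immediate early genes and is named here after its values were seen. It averaged 10.17 with wild-type DICER1, between 9.50 (D1709N) and 10.01 (D1810Y) in the mutants, and 9.44 with eGFP.

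Genes reported as AP-1 targets in other cells were measured for 13 that passed the filter. In mutants against wild-type DICER1 4 were higher and 9 lower (median -0.28), with Plaur, the urokinase receptor gene, at -1.15, Hmox1 at -0.89, Emp1 at -0.82 and Ccnd1, which encodes cyclin D1, at 1.02. In Dicer-null against Dicer wild-type cells 10 were higher and 2 lower, led by Emp1 (2.60) and Plaur (2.51). The counts were 5 higher and 4 lower in eGFP against Dicer-null, 6 and 5 with wild-type DICER1 against eGFP, and 7 and 5 in mutants against eGFP. With wild-type DICER1 against eGFP 30.8% of all tested genes were called higher and 28.7% lower.

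Stress genes were read because Atf3 is also a target of the integrated stress response. All 14 tested genes of that response and the unfolded protein response were lower in eGFP than in Dicer-null cells, where Atf3 fell too, with Ddit4 at -1.71, Ppp1r15a at -1.53 and Chac1 at -1.25. Of all tested genes 27.4% were called lower in that comparison. With wild-type DICER1 against eGFP 4 were higher and 5 lower, and in mutants against wild-type DICER1, as in mutants against eGFP, 7 were higher and 2 lower. In Dicer-null against Dicer wild-type cells 3 were higher and 7 lower. Of 7 heat shock genes, 2 were higher and 4 lower in mutants against wild-type DICER1, and 3 higher and 2 lower with wild-type DICER1 against eGFP. Their counts were 2 and 0, 1 and 3, and 1 and 2 in Dicer-null against Dicer wild-type, eGFP against Dicer-null and mutants against eGFP. What part stress plays in the members' values was not tested.

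Markers of other cells moved with some of these comparisons. Of 14 fibroblast or feeder markers 9 passed the filter, and 7 were higher and 0 lower with wild-type DICER1 against eGFP, led by Pdgfrb (1.301) and Tagln (0.999), while 3 were lower and 0 higher in mutants against wild-type DICER1. The mean level over the 14 was 6.36 to 6.38 in Dicer-null arrays, 6.27 to 6.36 in Dicer wild-type, 6.37 to 6.54 in eGFP, 6.65 to 6.89 in the mutants and 6.92 to 6.98 in wild-type DICER1. Their count was 1 higher and 1 lower in Dicer-null against Dicer wild-type, 1 and 0 in eGFP against Dicer-null, and 5 and 0 in mutants against eGFP. Lum, a defining gene of the list, averaged 4.08 with wild-type DICER1 and 4.10 with eGFP, and Dcn 5.89 and 6.07. Postn, a marker below the filter and so untested, was chosen after its values were seen: it averaged 7.21 (SD 0.49, n = 6) with wild-type DICER1, 4.81 with eGFP, and between 5.00 (D1810Y) and 6.35 (D1709N) in the mutants. The part of these markers in the members' results was not tested.

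Pluripotency markers (11 tested) were higher in 3 and lower in 8 cases in mutants against wild-type DICER1, and 2 and 6 with wild-type DICER1 against eGFP. Klf2 differed by -1.38 with wild-type DICER1 and -1.005 in mutants, each against eGFP, and by 0.37 in mutants against wild-type DICER1. Utf1 differed by 0.705 in mutants against wild-type DICER1, Zfp42 by 0.62 with wild-type DICER1 against eGFP, and Klf4 by -0.64 in Dicer-null against Dicer wild-type. The other counts of these markers were 5 and 3 in Dicer-null against Dicer wild-type, 1 and 8 in eGFP against Dicer-null, and 2 and 5 in mutants against eGFP. Differentiation markers (12 tested) gave 4 higher and 4 lower in mutants against wild-type DICER1 and 3 and 4 with wild-type DICER1 against eGFP, where Eomes (1.33) and Gata6 (1.15) rose, and both were lower in the mutants than in wild-type DICER1 (-0.85 and -0.82). Their other counts were 5 and 2, 2 and 4, and 6 and 3 in the same order as above. Of 8 housekeeping genes, 4 were higher and 4 lower in mutants against wild-type DICER1, among them Gusb (0.51) and Pgk1 (-0.49), and 3 and 3 with wild-type DICER1 against eGFP, 3 and 4 in Dicer-null against Dicer wild-type, 2 and 1 in eGFP against Dicer-null, and 3 and 2 in mutants against eGFP. Gusb and Pgk1, both used as controls, thus differed between mutants and wild-type DICER1 by more than Fos, Junb, Atf3, Ier2 or Ier3 did.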

How the data were processed

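Total RNA of 28 samples was hybridised to mouse gene arrays. Per the submitters' processing notes, values were made with RMA and Partek 6.6, and the authors deposited them as log2 values of 35556 probe sets. GEO's platform annotation gave 21789 probe sets 1 symbol, 1621 several and 12146 none, and the last 2 kinds were left out. Symbols with several probe sets were read from the one with the highest mean. limma 3.58.1 (R 4.3.3; lmFit, contrasts, eBayes with a trend, 18 residual degrees of freedom) was fitted to genes above the 30th percentile, with 9 group terms and a vector term and two-sided tests. It was tested on simulated data whose arrays were independent, so that check does not cover the exact relations between the deposited arrays.

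The members and lists were chosen with earlier results of these data known, so their counts are descriptions and no list was tested. The text names all 10 members, up to 4 called genes with the largest change from each other list and comparison, and the 3 genes most like each member. Promoter letters came from RefSeq (GRCm38.p6), and the TGACATCA search was added after the sequences were seen. The number of arrays limits the precision. Alternatives changed the filter, centring, vector term, variance prior, replicates and arrays used.

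Replicate numbers were checked for pairing. Same-numbered arrays of different groups deviated together with a median r of -0.02 (88 pairs), against 0.00 for other pairs (254). The exact relations run along the numbers and set some same-numbered arrays opposite each other (lowest r -1.00). The check therefore cannot decide whether arrays were paired, and the main fit used no block for the number.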

Additional observations from a re-analysis of the deposited data

Results flagged for a closer look

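Jun on array 4 of wild-type DICER1 read 9.638, and the 5 other arrays lay between 9.93 and 10.06. It stood apart from its group by a gap of 0.70 of the group's range, which passes the critical value of Dixon's test for 6 arrays. That value is higher for 4 arrays, and the larger gaps of array 4 of D1709A for Egr1 (0.828), Fosb (0.775), Jun (0.747) and Ier2 (0.713) do not pass it. In all 20 sets of 4 or 6 arrays were checked, and chance gives about 1 in 20. Array 4 of D1709A deviates by the same amount in the opposite direction through an exact relation in the deposited values.

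The difference from wild-type DICER1 was not the same in mutants carried by PGKnvA and by ENvA for 4 members, by the limma test of that difference: Fos 0.309, Jun 0.548, Egr1 0.580 and Egr2 0.586 log2 units higher in PGKnvA mutants. These are pooled values, and for Jun E1813Q differed from wild-type DICER1 by 0.05 and D1709N by -0.58. Vector, array set and mutation cannot be told apart.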

How the results depend on the processing

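Alternatives were run on the 11 comparisons of the members, and leaving out 1 array on those comparisons that use its group. No direction was reversed where the main fit or the alternative called the difference. Changes of sign between uncalled differences were not counted. Taking 1 mean per group and array set as the replicate (3 residual degrees of freedom) left 6 of 10 members called in mutants against wild-type DICER1, and 23 of 37 calls over the 5 single mutants. The exact relations tie the residuals of that fit to 1 deviation, that of the arrays numbered 4, so its p-values do not measure how far results repeat across sets. Using set means lost 27 of 110 values their call and gave 2 one. Leaving out 1 array lost 28 and gave 8 of 1150. Over the single mutants the count then ran from 33 to 37, and in mutants against eGFP from 4 to 7. With no filter 3 calls were lost. Filtering at the 50th percentile (8 members) gained 2, centring lost 1 and gained 2, dropping the vector term gained 8, and fitting only the groups compared lost 3 and gained 6. Dropping the vector term, which was close to 0, changed SEs and p-values but not the differences. The variance settings changed no call.

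With the replicate number as a replicate block, and no vector term since the number and the vector overlap, the calls were 9 in Dicer-null against Dicer wild-type, 8 in eGFP against Dicer-null, 9 with wild-type DICER1 against eGFP, 6 in mutants against eGFP, 9 in mutants against wild-type DICER1 and 37 over the single mutants. Of all 110 values 4 gained a call and 1 lost it, Ier2 in mutants against wild-type DICER1 (-0.13, adjusted p = 0.0722). A group left with 1 array is assumed to vary like the others. No other probe set existed for any member.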
